A study of Mus musculus with 30 samples.

Results

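The genes described here are 9 regulators of mRNA decay, chosen by name as a functional group, with earlier results of these data known. They are Zfp36, Zfp36l1, Zfp36l2, Btg1, Btg2, Tob1, Tob2, Elavl1 and Khsrp. Each was found as 1 row of the gene counts, by its Ensembl identifier with the version removed, so that 9 of 57186 gene identifiers are members. Their RNA was followed in 2 mouse lines after translation was inhibited with cycloheximide, which blocks elongation by ribosomes. NIH/3T3 is an embryonic fibroblast line and was grown in DMEM with serum. CGR8 is an embryonic stem cell line and was grown in N2B27 medium with 2i and LIF, which hold stem cells in an undifferentiated state. Each line had its own medium, so a difference between the lines cannot be told apart from one between the media. Both lines carry a knock-in at ROSA26, given in the labels as ROSA26 SLT, in the 0 h libraries as well as in the treated ones, and the labels do not say whether a line is 1 clone. The dose of cycloheximide was 0.1 µg/mL, with sampling after 0, 1, 2, 5 and 48 h in 3 replicates per line and time, which makes 10 groups and 30 libraries. The 0 h libraries are the reference of their line, although the treatment field names cycloheximide for them too. No untreated libraries of the later times are among the 30, so an effect of cycloheximide cannot be told apart from one of time in culture. Nothing says that the replicates were separate cultures, so the p-values measure the spread between these libraries, which may be technical.

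The 3 ZFP36 proteins (ZFP36 is also called tristetraprolin) are zinc finger proteins that bind AU-rich elements in the 3′ untranslated regions (UTRs) of short-lived mRNAs and recruit the CCR4-NOT deadenylase complex, which removes the poly(A) tail and so starts decay. KHSRP is a KH-domain protein that also binds AU-rich elements and promotes decay, whereas ELAVL1 (HuR) binds such elements and is known to stabilise the mRNA. BTG1, BTG2, TOB1 and TOB2 share the BTG domain, through which they bind the CNOT7 and CNOT8 deadenylases of CCR4-NOT. They are also known as antiproliferative proteins, and TOB1 and TOB2 bind the poly(A)-binding protein as well. As background from other work, Zfp36 and Btg2 are immediate-early genes, which serum and stress induce within minutes, and Btg2 is a p53 target.

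Several of these regulators carry in their own mRNA the element that the ZFP36 proteins bind. The AU-rich heptamer TATTTAT was searched on the sense strand of the annotated 3′ UTR (GENCODE M21, build GRCm38). It was present in 6 of the 9 members and not found in the annotated UTRs of Btg1, Tob1 and Khsrp. Zfp36, Zfp36l1 and Zfp36l2 held 3 copies each, while Btg2 and Tob2 held 1. Elavl1 held 8, most of them overlapping a neighbouring copy, between 3795 and 3847 bases after the stop codon. The first copy in each of the 6, with 10 bases on either side and the heptamer in capitals, shows the element in its context:
Zfp36: gtgggcccttTATTTATgacgacttta
Zfp36l1: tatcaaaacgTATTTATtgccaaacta
Zfp36l2: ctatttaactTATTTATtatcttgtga
Btg2: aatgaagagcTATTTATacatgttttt
Tob2: atcacctgctTATTTATgtacgaggtt
Elavl1: tcatgaaaatTATTTATttatttattt
These copies start 575, 1150, 822, 103, 852 and 3795 bases after the stop codon, in the same order. Among the genes whose 3′ UTR was within 20% of the same length, 1.27% of 2355 had at least 3 copies for the 774-base UTR of Zfp36. The corresponding share was 4.21% of 2615 for Zfp36l1, 4.19% of 2623 for Zfp36l2 and 0.242% of 1242 for the 8 copies of Elavl1. A single copy is common, since 43.5% of genes with a UTR like that of Btg2 and 47.2% of those like Tob2 had at least 1. A match of letters describes the sequence and does not show that a protein binds there.

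**Figure D1:**
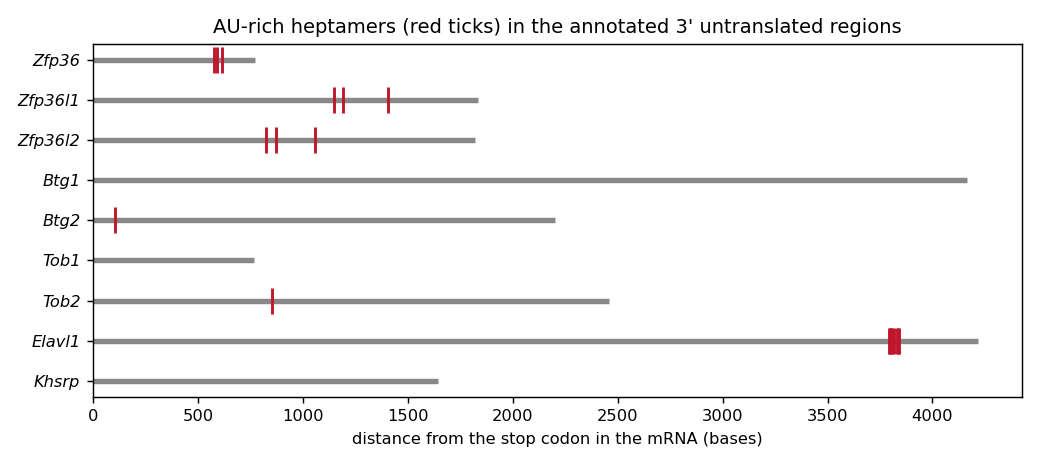
Each bar is the annotated 3′ UTR of 1 member, drawn to scale from the stop codon in bases, and each red tick is 1 copy of the AU-rich heptamer. The 8 copies of Elavl1 lie close together near the end of a 4218-base UTR, and the 3 copies of Zfp36 lie within the last part of a 774-base UTR.

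Per library the counts (in mega-counts, M) summed to between 18.2 and 30.5 M, with a median of 24.3 M, and each member had between 69 and 10479 counts in each library. Levels are given as CPM, which scales each count to the size of its library, so that a change in the total RNA of the cells is not seen. In such bulk samples, fewer cells of a type and less RNA per cell cannot be told apart. Of 8 embryonic stem cell markers, 7 were higher in every CGR8 library than in any NIH/3T3 library (all but Klf4), and 7 of 8 fibroblast markers were higher in every NIH/3T3 library (all but Fn1). The stem cell markers summed to 222 to 419 CPM in NIH/3T3 and 4746 to 7606 CPM in CGR8, and the fibroblast markers to 10076 to 16995 CPM in NIH/3T3 and 748 to 1726 CPM in CGR8. Of 7 markers of differentiating or extra-embryonic cells, the sum was 7.77 to 14.9 CPM in CGR8. The libraries differed from the other replicates of their group by a median absolute log2 difference of 0.0463 to 0.320, and the highest value was that of NIH/3T3 1 h replicate C. The next were CGR8 5 h replicates C (0.247) and A (0.240), CGR8 2 h replicate A (0.240) and CGR8 2 h replicate B (0.218). Member calls that were gained or lost when 1 of these was left out are given beside the result. Replicate values are in the order A, B, C, and a log2 fold change is followed by its standard error (SE). The libraries of compared groups often did not overlap in CPM. Against 0 h at 1, 2, 5 and 48 h this held for 14.4%, 45.5%, 66.8% and 69.9% of all genes tested in NIH/3T3. In CGR8 it held for 25%, 31.9%, 54.6% and 48.7%, and between the lines at 0 h for 81.1%.

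Before treatment, the lines held these regulators at different levels and in a different order. All 9 members differed between the lines at 0 h in edgeR's quasi-likelihood test at an adjusted p under 0.05, as did 79.1% of the 17549 genes tested. Zfp36l1, Elavl1 and Khsrp were higher in CGR8 (42.8% of all genes were called higher) and the other 6 were lower (36.3% were called lower). The median log2 difference of the members was -0.81, beside 0.15 over all genes tested. Zfp36l2 differed most, with 369, 323 and 328 CPM in NIH/3T3 and 40.3, 37.3 and 35.8 in CGR8 (log2 difference -3.17 ± 0.15, adjusted p 3.4e-17 by edgeR). Btg1 was at 150.1, 140.0 and 146 CPM in NIH/3T3 and 21.6, 20.7 and 23.7 in CGR8 (-2.72 ± 0.08, adjusted p 1.1e-21 by edgeR). For both genes each of the NIH/3T3 libraries was far above each of the CGR8 libraries. Zfp36 (-1.53 ± 0.17), Tob2 (-1.47 ± 0.11), Tob1 (-0.81 ± 0.11) and Btg2 (-0.51 ± 0.11) were lower in CGR8 by less, and the 3 higher members differed by 0.88 ± 0.14 (Zfp36l1), 0.83 ± 0.11 (Elavl1) and 0.70 ± 0.11 (Khsrp).

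To compare genes with each other, CPM was divided by the merged exon length in kilobases. That length covers the exons of all annotated transcripts and can exceed that of the mRNA present, so the orders depend on it. For Elavl1 it was 10.4 kb, with an annotated 3′ UTR of 4218 bases. At 0 h in NIH/3T3 the order by CPM per kb was Zfp36l2 (96.3), Khsrp (31.6), Btg1 (27.6), Zfp36l1 (25.1), Tob1 (15.1), Elavl1 (11.2), Btg2 (9.59), Tob2 (7.57) and Zfp36 (4.05). In this order the replicates of Khsrp and Btg1, of Btg1 and Zfp36l1, and of Elavl1 and Btg2 overlapped. At 0 h in CGR8 the order by CPM per kb was Khsrp (51.4), Zfp36l1 (46.3), Elavl1 (19.8), Zfp36l2 (10.7), Tob1 (8.63), Btg2 (6.72), Btg1 (4.18), Tob2 (2.74) and Zfp36 (1.40), and the replicates of no neighbours overlapped. By this measure, Zfp36l2 was the most abundant member of the ZFP36 family in untreated NIH/3T3 and Zfp36l1 in untreated CGR8. By the same measure Zfp36 was the lowest of all 9 in both lines.

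**Figure D2:**
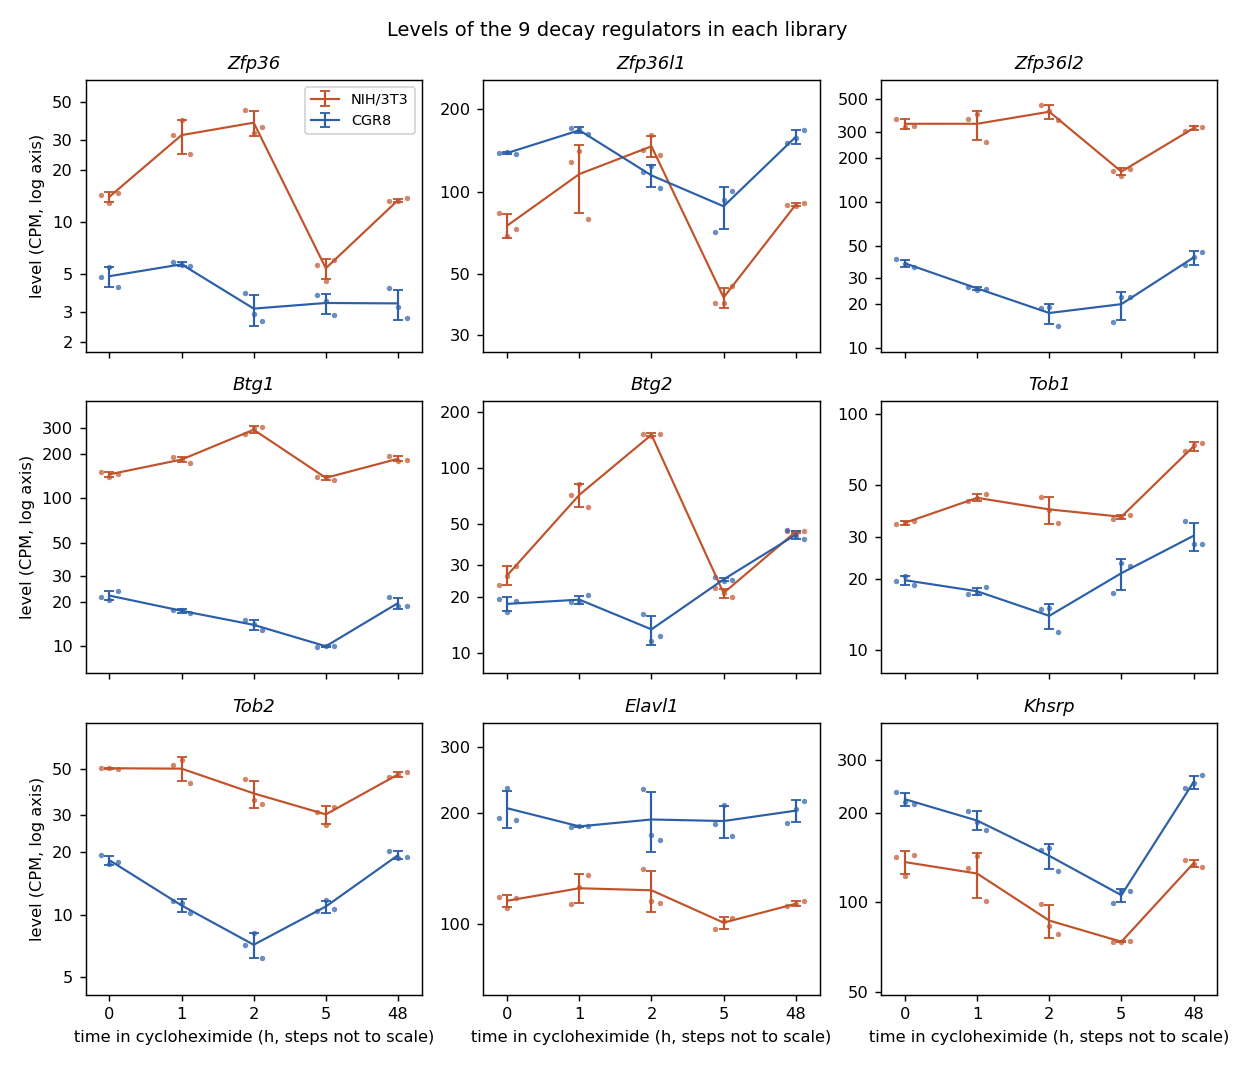
Each panel shows 1 member, with its level in CPM on a log axis against the time in cycloheximide (steps not to scale); points are libraries, and lines with bars are the mean and SD of 3 replicates per line. Btg2 reaches 148 to 153 CPM at 2 h in NIH/3T3, from 23.2 to 29.5 CPM at 0 h, and Elavl1 lies between 97.0 and 141 CPM in NIH/3T3 throughout.

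Early calls were mostly rises in NIH/3T3 and all falls in CGR8, and at 5 h nearly all calls were falls in both lines. In NIH/3T3, 3 of 9 members were called at 1 h, all higher (0.732% of the 13941 genes tested were called, and 0.653% were called higher). At 2 h, 6 members were called there, 4 higher and 2 lower, beside 35% of all genes (16.1% higher and 18.9% lower). In CGR8, 1 of 9 was called at 1 h, lower (0.27% of 15933 genes, 0.126% lower), and 7 were called at 2 h, each of them lower, beside 19.9% of all genes called and 11% called lower. At 5 h, 6 members had fallen and 0 had risen in NIH/3T3 (51% of all genes called, 27.1% lower), and 6 had fallen and 1 had risen in CGR8 (52.1% of all genes called, 27.2% lower and 24.9% higher). At 48 h, 3 members were higher than at 0 h in NIH/3T3 (52.3% of all genes called, 26.7% higher), and 2 were higher and 1 lower in CGR8 (27.8% called, 12.2% higher and 15.6% lower). The median log2 fold change of the members at 1, 2, 5 and 48 h was 0.36, 0.31, -0.70 and -0.04 in NIH/3T3, and -0.16, -0.65, -0.70 and 0.12 in CGR8. Over all genes tested it lay between -0.01 and 0.02 in each of these comparisons. The 4 comparisons of a line share its 0 h libraries.

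**Figure D3:**
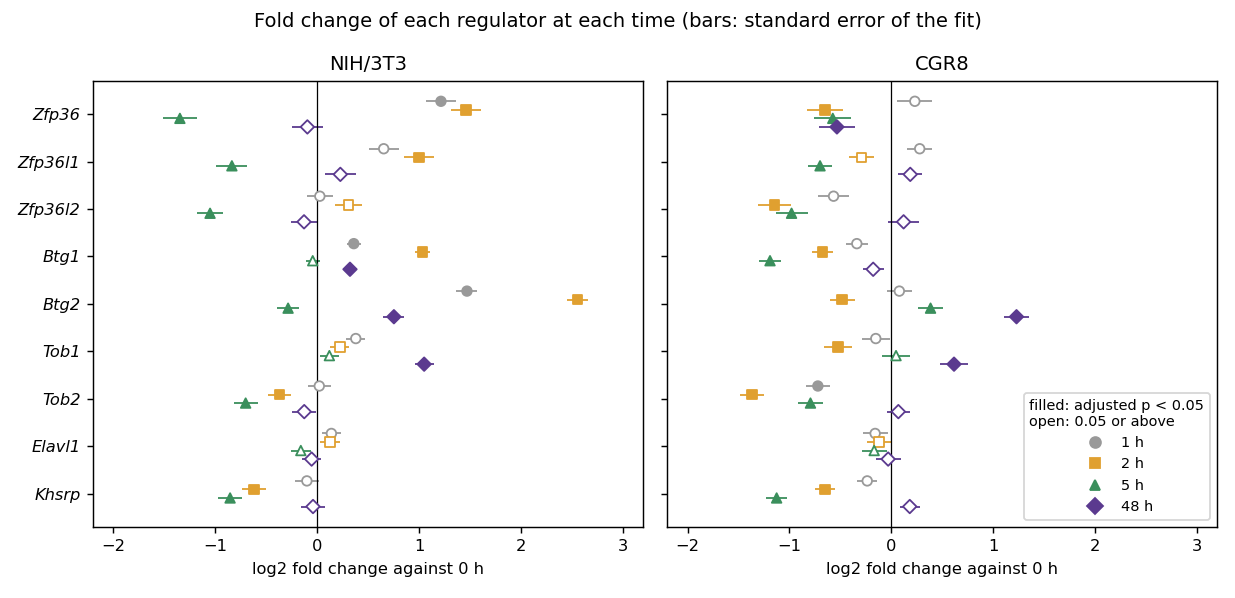
Points are the fitted log2 fold changes against 0 h at each time, with NIH/3T3 and CGR8 in separate panels, bars are standard errors, and filled points passed the test. Btg2 stands at 2.55 at 2 h in NIH/3T3 and -0.48 at 2 h in CGR8, and 6 members are filled on the left side at 5 h in each line.

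Zfp36, which encodes the founding AU-rich element binding protein of its family, rose early in NIH/3T3 and then fell below its starting level. Its NIH/3T3 libraries were at 14.3, 13.0 and 14.8 CPM at 0 h, 31.9, 39.1 and 25.0 at 1 h, 44.8, 32.8 and 35.9 at 2 h, 5.62, 4.57 and 5.99 at 5 h and 13.2, 13.3 and 13.7 at 48 h. All libraries at 1 and 2 h were above all at 0 h, those at 5 h were below them, and those at 48 h overlapped the 0 h range. By edgeR's quasi-likelihood test with Benjamini-Hochberg adjustment, Zfp36 rose at 1 h (1.21 ± 0.15, adjusted p 0.000241) and 2 h (1.46 ± 0.15, adjusted p 4.9e-06) and fell at 5 h (-1.35 ± 0.17, adjusted p 7.9e-06). The value at 48 h was -0.10 ± 0.15, adjusted p 0.62 in the same edgeR fit. Without 1 h replicate C the 1 h value was 1.34 (edgeR adjusted p 1.3e-05).

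In CGR8, Zfp36 was scarce, at 4.82, 5.51 and 4.22 CPM at 0 h, 5.86, 5.62 and 5.57 at 1 h, 3.87, 2.91 and 2.65 at 2 h, 3.78, 3.50 and 2.89 at 5 h and 4.13, 3.198 and 2.79 at 48 h. Each library at 2, 5 and 48 h was below each at 0 h, and those at 1 h were slightly above. Zfp36 fell there at 2 h (-0.65 ± 0.18, adjusted p 0.0202), 5 h (-0.58 ± 0.18, adjusted p 0.0138) and 48 h (-0.53 ± 0.18, adjusted p 0.0341, each by edgeR), and the 1 h value was 0.23 ± 0.17. These 3 falls rest on few counts and on single libraries. The 2 h call was lost without 0 h replicate A, 0 h replicate B or 2 h replicate C (edgeR adjusted p 0.0569 to 0.112). At 5 h it was lost without 0 h replicate B or 5 h replicate C (0.0575 to 0.0615), and at 48 h without 0 h A, 0 h B, 48 h B or 48 h C (edgeR adjusted p 0.0758 to 0.149). With the compared groups alone the 2 h and 48 h calls were lost (0.0794 and 0.0505), and without a filter that at 48 h (edgeR adjusted p 0.0733).

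Zfp36l1 and Zfp36l2, the other 2 members of the family, fell at 5 h in both lines. In NIH/3T3, Zfp36l1 was at 83.4, 69.0 and 73.0 CPM at 0 h, 128, 140.3 and 79.6 at 1 h, 143, 161 and 136 at 2 h, 39.0, 39.0 and 45.1 at 5 h and 89.6, 88.5 and 90.9 at 48 h. At 1 h replicates A and B were above the 0 h range and replicate C, the library that lay farthest from its group, was within it. Zfp36l1 rose at 2 h (1.00 ± 0.15, adjusted p 0.0002) and fell at 5 h (-0.84 ± 0.15, adjusted p 0.000252, both by edgeR). The 1 h value did not pass (0.65 ± 0.15, adjusted p 0.0556), and without 1 h replicate C it did (0.84, edgeR adjusted p 4.6e-05). It also passed without a filter (8.5e-06) and with DESeq2 (adjusted p 0.00509). At 48 h in NIH/3T3 the value was 0.23 ± 0.15, which passed with the compared groups alone (edgeR adjusted p 0.0114). In CGR8, Zfp36l1 was at 139, 139 and 137 CPM at 0 h, 171, 169 and 163 at 1 h, 118, 124 and 103 at 2 h, 71.0, 93.5 and 101 at 5 h and 151, 157 and 169 at 48 h. Only the 5 h libraries were called, as a fall of -0.70 ± 0.12, adjusted p 0.000196 by edgeR. The ranges at 1, 2 and 48 h did not overlap that at 0 h either, as was the case for 25%, 31.9% and 48.7% of all genes tested. The other fitted values were 0.28 ± 0.12 at 1 h, -0.29 ± 0.12 at 2 h and 0.19 ± 0.12 at 48 h.

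Zfp36l2 in NIH/3T3 was at 368, 397 and 255 CPM at 1 h, 454, 416 and 364 at 2 h, 162, 150.1 and 168 at 5 h and 305, 322 and 323 at 48 h, after the 0 h values given above. The 5 h libraries were the low ones, at less than any other NIH/3T3 library, and the fall at 5 h was -1.05 ± 0.13, adjusted p 8.6e-06 by edgeR. The values at 1 h (0.03 ± 0.13), 2 h (0.31 ± 0.13) and 48 h (-0.13 ± 0.13) did not pass. The 2 h value did pass without a filter (edgeR adjusted p 0.036), with DESeq2 (0.0439), with the compared groups alone (0.0467) and without 2 h replicate C (0.0453). In CGR8, Zfp36l2 was at 26.2, 24.8 and 25.4 CPM at 1 h, 18.7, 19.1 and 14.1 at 2 h, 14.9, 22.4 and 22.4 at 5 h and 36.7, 42.0 and 45.5 at 48 h. All libraries at 1, 2 and 5 h were below those at 0 h, and those at 48 h overlapped them. Zfp36l2 fell there at 2 h (-1.15 ± 0.16, adjusted p 0.000265) and 5 h (-0.98 ± 0.16, adjusted p 0.000103, both by edgeR), while 1 h (-0.57 ± 0.15, adjusted p 0.205) and 48 h (0.12 ± 0.15) did not pass. The 1 h value passed without a filter (edgeR adjusted p 0.0112), with DESeq2 (0.0422) and with the compared groups alone (0.0268).

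Btg2, the antiproliferative CCR4-NOT cofactor and p53 target, showed the largest rise of the 9 in NIH/3T3. There Btg2 was at 23.2, 26.2 and 29.5 CPM at 0 h, 71.5, 81.9 and 61.5 at 1 h, 153, 148 and 153 at 2 h, 22.3, 21.0 and 19.97 at 5 h and 45.6, 44.5 and 45.7 at 48 h. The 2 h libraries were all above those at 1 h, which were all above the rest, and the 5 h libraries were slightly below those at 0 h. Btg2 rose by 1.47 ± 0.10, adjusted p 4.0e-07 at 1 h and by 2.55 ± 0.11, adjusted p 4.0e-10 at 2 h, on the log2 scale by edgeR. It was lower at 5 h (-0.29 ± 0.10, adjusted p 0.0309) and higher again at 48 h (0.75 ± 0.10, adjusted p 1.8e-05, both by edgeR). The 5 h call was lost without 0 h replicate B or C or 5 h replicate B or C (edgeR adjusted p 0.0653 to 0.172) and without a filter (0.0733), and without 1 h replicate C the 1 h value was 1.54.

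In CGR8, Btg2 went the other way at 2 h and rose late. Its CGR8 libraries were at 19.7, 16.6 and 19.0 CPM at 0 h, 19.0, 18.8 and 20.6 at 1 h, 16.2, 11.7 and 12.4 at 2 h, 25.7, 24.5 and 24.8 at 5 h and 46.1, 43.0 and 41.5 at 48 h. The 2 h libraries were the lowest, those at 5 h were above all at 0 h, and those at 48 h were above all others. Btg2 fell at 2 h (-0.48 ± 0.12, adjusted p 0.0133) and rose at 5 h (0.38 ± 0.12, adjusted p 0.0136) and 48 h (1.23 ± 0.12, adjusted p 2.8e-06, each by edgeR), and the 1 h value was 0.08 ± 0.12. The 2 h call was lost without 0 h replicate A or 2 h replicate C (edgeR adjusted p 0.0653 to 0.0725) and with the compared groups alone (0.0925). The 5 h call was lost without 0 h replicate B (0.052), without a filter (0.0692) and with library totals alone as the scaling (0.0683). Btg2 was the only member of the 9 called higher at 5 h in either line.

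The proximal promoters of Zfp36 and Btg2, the members with the largest rises at 1 and 2 h in NIH/3T3, are shown for the regulatory letters they hold. Each is the 250 bases before the annotated start, 5′ to 3′ on the gene's strand, from RefSeq (GRCm38.p6). Zfp36 spans chr7:28379229-28379478 (minus strand) and Btg2 spans chr1:134079156-134079405 (minus strand), and capitals mark a CArG box (the serum response factor site), an EGR1 site or a cyclic AMP response element:
Zfp36: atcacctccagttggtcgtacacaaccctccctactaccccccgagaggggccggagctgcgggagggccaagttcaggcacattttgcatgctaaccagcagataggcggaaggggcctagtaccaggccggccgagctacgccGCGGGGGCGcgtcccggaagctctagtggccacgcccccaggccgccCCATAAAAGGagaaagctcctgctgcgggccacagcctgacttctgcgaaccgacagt
Btg2: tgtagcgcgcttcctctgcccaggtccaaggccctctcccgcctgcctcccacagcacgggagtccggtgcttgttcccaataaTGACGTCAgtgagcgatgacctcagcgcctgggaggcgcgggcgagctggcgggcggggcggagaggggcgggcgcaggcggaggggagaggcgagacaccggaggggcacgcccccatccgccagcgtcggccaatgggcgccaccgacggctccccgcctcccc
Windows from 250 bases before to 50 after the start were available for 8 of the 9 members and for 27025 genes, and 9 motifs were searched on both strands. The CArG box of Zfp36, CCATAAAAGG, lay 58 to 49 bases before the start, in a window type where 1.57% of genes had one, and its first base is shared with a GC box on the other strand. The EGR1 site of Zfp36 (GCGGGGGCG) lay 105 to 97 bases before the start (2.92% of genes). Btg2 held the cyclic AMP response element, searched as TGACGTCA, 166 to 159 bases before the start (1.88% of genes) and 3 GC boxes, a motif searched as GGGCGG that 35.9% of genes had at least once. Among the other members, a TATA box, searched as TATAAA, was found in Zfp36l1, Btg1 and Tob1 (14.2% of genes). The AP-1 site, searched as TGANTCA and present in 7.93% of genes, was found in Zfp36l1. Btg1 held a FOXO site, for which the letters TGTTTAC were sought and met in 3.55% of genes. The ETS motif CCGGAAGT (4% of genes) and the NF-kB site (0.144%) were in none of the 8 windows.

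Btg1, the closest relative of Btg2, rose in NIH/3T3 and fell in CGR8. In NIH/3T3 it was at 189, 186 and 174 CPM at 1 h, 273, 298 and 302 at 2 h, 141, 139 and 134 at 5 h and 194, 179.6 and 183 at 48 h, from the 0 h values given above. The 2 h libraries were the highest, and the 5 h libraries overlapped those at 0 h. Btg1 rose at 1 h (0.36 ± 0.07, adjusted p 0.0192), 2 h (1.03 ± 0.07, adjusted p 3.0e-08) and 48 h (0.32 ± 0.07, adjusted p 0.00118, each by edgeR), and the 5 h value was -0.04 ± 0.07. The 1 h call was lost in 5 of the 6 fits that left out 1 library of its groups, all but 1 h replicate C (edgeR adjusted p 0.0531 to 0.119). It was also lost with library totals alone (0.0746), without a filter (0.109) and with the compared groups alone (edgeR adjusted p 0.414). In CGR8, Btg1 was at 17.6, 17.7 and 16.8 CPM at 1 h, 15, 14.1 and 12.8 at 2 h, 9.88, 10.1 and 10.1 at 5 h and 21.5, 18.7 and 18.6 at 48 h. The 3 libraries at 5 h were the lowest and the replicates of 0, 1, 2 and 5 h did not overlap. Btg1 fell in CGR8 at 2 h (-0.68 ± 0.11, adjusted p 0.000668) and 5 h (-1.19 ± 0.11, adjusted p 8.9e-07, both by edgeR), and the values at 1 h (-0.34 ± 0.10) and 48 h (-0.18 ± 0.10) did not pass.

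Tob1, which links the deadenylase to the poly(A)-binding protein, rose late in both lines. In NIH/3T3 its libraries were at 34.1, 34.5 and 35.3 CPM at 0 h, 42.9, 43.9 and 45.8 at 1 h, 44.6, 39.4 and 34.4 at 2 h, 36.0, 36.8 and 37.4 at 5 h and 69.6, 74.0 and 75.7 at 48 h. The 48 h libraries were above all others, and 48 h was the only time that passed (1.05 ± 0.09, adjusted p 2.1e-07 by edgeR). The values at 1, 2 and 5 h in NIH/3T3 were 0.38 ± 0.09, 0.22 ± 0.09 and 0.12 ± 0.09. DESeq2 called that at 1 h (adjusted p 0.0218), and edgeR called that at 2 h with a 5 CPM filter on the mean (adjusted p 0.0442) and without 2 h replicate C (0.0223). In CGR8, Tob1 was at 19.7, 20.7 and 18.9 CPM at 0 h, 17.3, 17.4 and 18.5 at 1 h, 14.9, 15.02 and 11.9 at 2 h, 17.4, 23.3 and 22.7 at 5 h and 35.2, 28.1 and 28.1 at 48 h. It was low at 2 h (-0.52 ± 0.14, adjusted p 0.0165) and high at 48 h (0.61 ± 0.14, adjusted p 0.00292, both by edgeR), while 1 h (-0.15 ± 0.14) and 5 h (0.05 ± 0.14) did not pass. The 2 h call was lost without 0 h replicate A or 2 h replicate C (edgeR adjusted p 0.0536 to 0.0964) and with the compared groups alone (0.0608).

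Tob2, the paralogue of Tob1, fell at 2 and 5 h in both lines and was never called higher than at 0 h. In CGR8 its libraries were at 19.3, 17.5 and 17.9 CPM at 0 h, 11.7, 11.4 and 10.1 at 1 h, 7.18, 8.13 and 6.18 at 2 h, 10.4, 11.8 and 10.7 at 5 h and 20.2, 18.6 and 19.0 at 48 h. Those at 2 h were the lowest, and those at 48 h overlapped the 0 h range. The falls in CGR8 were -0.72 ± 0.12, adjusted p 0.0117 at 1 h, -1.37 ± 0.12, adjusted p 6.7e-06 at 2 h and -0.79 ± 0.12, adjusted p 5.8e-05 at 5 h by edgeR, and the 48 h value was 0.07 ± 0.12. Tob2 was the 1 member called in CGR8 at 1 h, and that call was lost in 5 of 6 fits that left out 1 library, all but 0 h replicate B (edgeR adjusted p 0.0507 to 0.125). In NIH/3T3, Tob2 was at 50.9, 50.5 and 50.04 CPM at 0 h, 52.4, 55.6 and 42.8 at 1 h, 44.9, 35.7 and 34.1 at 2 h, 30.97, 27.1 and 32.9 at 5 h and 45.6, 47.5 and 48.3 at 48 h. All libraries at 2 and 5 h were below those at 0 h, and those at 5 h were below those at 2 h. The fall was -0.37 ± 0.12, adjusted p 0.0218 at 2 h and -0.70 ± 0.12, adjusted p 0.000118 at 5 h by edgeR, and 1 h (0.02 ± 0.11) and 48 h (-0.13 ± 0.12) did not pass. The 2 h call in NIH/3T3 was lost in 5 of 6 fits that left out 1 library, all but 2 h replicate A (edgeR adjusted p 0.0535 to 0.118).

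Khsrp, the KH-domain decay factor, fell at 2 and 5 h in both lines. In NIH/3T3 it was at 142, 123 and 145 CPM at 0 h, 130.2, 143 and 101 at 1 h, 98.9, 83.3 and 77.9 at 2 h, 73.2, 73.7 and 73.9 at 5 h and 139, 135 and 131 at 48 h. In CGR8 it was at 235, 217 and 214 CPM at 0 h, 203, 186 and 175 at 1 h, 149.7, 152.3 and 127 at 2 h, 99.1, 109 and 109 at 5 h and 242, 251 and 267 at 48 h. In each line the 5 h libraries were the lowest and the 2 h libraries the next. Khsrp fell in NIH/3T3 at 2 h (-0.62 ± 0.12, adjusted p 0.000995) and 5 h (-0.86 ± 0.12, adjusted p 2.0e-05) and in CGR8 at 2 h (-0.65 ± 0.10, adjusted p 0.00061) and 5 h (-1.13 ± 0.10, adjusted p 8.4e-07, each by edgeR). The values at 1 and 48 h were -0.10 ± 0.11 and -0.04 ± 0.11 in NIH/3T3 and -0.24 ± 0.10 and 0.18 ± 0.10 in CGR8, and these did not pass. For Khsrp no difference between the lines in its response was called, and the approximate 95% interval of that difference was -0.28 to 0.32 at 2 h and -0.48 to 0.12 at 5 h on the log2 scale.

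Elavl1 encodes the stabilising protein HuR. It was the 1 member with no call against 0 h in either line in the edgeR fits of whole lines with TMM factors, or with DESeq2. In NIH/3T3, Elavl1 was at 119, 111 and 118 CPM at 0 h, 114, 126 and 136 at 1 h, 141, 115 and 114 at 2 h, 97.0, 102 and 104 at 5 h and 112, 113 and 116 at 48 h. In CGR8 it was at 193, 232 and 191 CPM at 0 h, 183, 184 and 184 at 1 h, 232, 174 and 169 at 2 h, 187, 209.9 and 173 at 5 h and 187, 205 and 215 at 48 h. Its 8 log2 fold changes against 0 h lay between -0.17 and 0.14, whereas those of Zfp36 spanned -1.35 to 1.46 and those of Btg2 spanned -0.48 to 2.55. The approximate 95% interval at 5 h was -0.35 to 0.03 in NIH/3T3 and -0.41 to 0.07 in CGR8. In NIH/3T3 at 5 h it was called in a fit of the compared groups alone (-0.15, edgeR adjusted p 0.0371), and in CGR8 at 5 h with library totals alone as the scaling (-0.27, edgeR adjusted p 0.0342). In the edgeR fits of whole lines with TMM factors, the only call for Elavl1 over time was 5 h below 2 h in NIH/3T3 (-0.29 ± 0.10, adjusted p 0.0408 by edgeR). That call was lost without 2 h replicate A or any 1 of the 5 h libraries (edgeR adjusted p 0.0709 to 0.178). It was also lost with library totals alone (0.0578), without a filter (0.0809) and with the compared groups alone (edgeR adjusted p 0.0717).

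The steps between later times show when each regulator turned. From 2 h to 5 h in NIH/3T3, 7 of 9 members fell and 0 rose (23.1% of all genes called, 12.5% lower), and the members other than Tob1 and Khsrp made up the 7. Btg2 fell by 2.84 and Zfp36 by 2.81 on the log2 scale in that step (edgeR adjusted p 1.7e-11 and 4.5e-09). From 2 h to 5 h in CGR8, Btg2 (0.87), Tob1 (0.57) and Tob2 (0.57) rose and Btg1 (-0.51), Zfp36l1 (-0.41) and Khsrp (-0.47) fell, with 19.1% of all genes called (7.91% higher and 11.2% lower). In a fit of the compared groups alone 1 member was called in that CGR8 step. The Zfp36l1 call there was lost without 2 h A, 2 h B, 5 h A or 5 h B (edgeR adjusted p 0.0565 to 0.126), and the Tob2 call in the NIH/3T3 step without 2 h A or any 1 of the 5 h libraries (0.0514 to 0.204). That Tob2 call was also lost with library totals alone (0.108), without a filter (0.0526) and with the compared groups alone (edgeR adjusted p 0.0934). From 5 h to 48 h, 8 members rose in NIH/3T3 (65.6% of all genes called, 34.1% higher) and 7 in CGR8 (57.5% called, 28.9% higher), and 0 fell in either line. Elavl1 did not pass in either line (0.11 ± 0.10 and 0.14 ± 0.12), nor did Zfp36 in CGR8 (0.04 ± 0.18).

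The responses of the lines were compared as the log2 fold change in CGR8 minus that in NIH/3T3, in 1 model of all 30 libraries. Line and medium cannot be told apart in this comparison. The responses parted most at 2 h, where 7 of the 9 members differed, each lower in CGR8, beside 2.02% of 17549 genes called and 1.16% called lower. The difference at 2 h was -2.98 ± 0.16, adjusted p 8.1e-13 for Btg2, -2.06 ± 0.24, adjusted p 1.2e-06 for Zfp36 and -1.66 ± 0.11, adjusted p 9.4e-11 for Btg1 by edgeR. Zfp36l2 (-1.40 ± 0.20), Zfp36l1 (-1.24 ± 0.20), Tob2 (-0.94 ± 0.16) and Tob1 (-0.69 ± 0.16) made up the rest, while Khsrp (0.02 ± 0.15) and Elavl1 (-0.19 ± 0.16) did not pass. Btg2, Zfp36 and Btg1 had risen in NIH/3T3 and fallen in CGR8 at that time, and Tob2 had fallen in both. Zfp36l2 and Tob1 had fallen in CGR8, with 2 h values in NIH/3T3 that did not pass in the fit of the whole line, and Zfp36l1 had risen in NIH/3T3, with a 2 h value in CGR8 that did not pass. The Tob1 call at 2 h was lost without NIH/3T3 2 h A or CGR8 2 h C (edgeR adjusted p 0.0513 to 0.0644), without a filter (0.0688) and with the compared groups alone (0.0986).

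**Figure D4:**
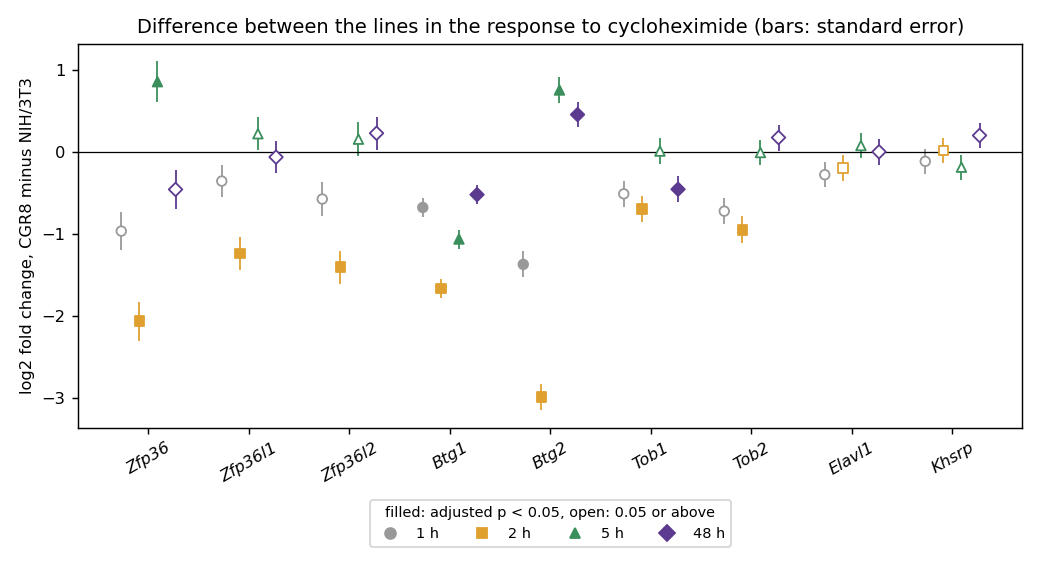
Points are the log2 fold change in CGR8 minus that in NIH/3T3 for each member at 1, 2, 5 and 48 h, bars are standard errors, and filled points passed the test. At 2 h the members other than Elavl1 and Khsrp are filled below 0, from -0.69 for Tob1 to -2.98 for Btg2.

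At 1 h, 2 members differed between the lines (0.16% of all genes called), Btg2 by -1.37 ± 0.16, adjusted p 1.8e-05 and Btg1 by -0.67 ± 0.11, adjusted p 0.0029 (edgeR). The Btg1 call was lost without a filter (0.142) and with the compared groups alone (edgeR adjusted p 0.0589). Zfp36 (-0.96 ± 0.23, adjusted p 0.154) and Tob2 (-0.72 ± 0.16, adjusted p 0.0717) did not pass by edgeR at 1 h. Without NIH/3T3 1 h replicate C, Zfp36 was at -1.11 (edgeR adjusted p 0.0179) and Tob2 at -0.82 (edgeR adjusted p 0.0117). DESeq2 called both as well (adjusted p 0.0321 and 0.00935), and so did edgeR without a filter for Zfp36 (0.0338) and with a 5 CPM filter on the mean for Tob2 (0.036). At 5 h, 3 members differed (13.3% of all genes called). By edgeR the difference was 0.86 ± 0.25, adjusted p 0.0202 for Zfp36 and 0.76 ± 0.16, adjusted p 0.00167 for Btg2. For Btg1 it was -1.06 ± 0.12, edgeR adjusted p 4.1e-07. Zfp36 had fallen in both lines at 5 h, by less in CGR8 (-0.58) than in NIH/3T3 (-1.35). Btg2 had risen in CGR8 and fallen in NIH/3T3. Btg1 had fallen in CGR8, with a 5 h value in NIH/3T3 that did not pass. The Zfp36 difference at 5 h was lost without NIH/3T3 5 h B, CGR8 0 h C, CGR8 5 h A or CGR8 5 h B (edgeR adjusted p 0.0631 to 0.184), and with library totals alone as the scaling (0.0722). At 48 h, 3 members differed (21.9% of all genes called), with -0.52 ± 0.11 for Btg1, 0.46 ± 0.16 for Btg2 and -0.45 ± 0.16 for Tob1. Tob1 lost that call in 11 of 12 fits that left out 1 library, all but CGR8 48 h replicate A (edgeR adjusted p 0.0538 to 0.114). Btg2 lost it in 6 of 12, those without NIH/3T3 0 h C, NIH/3T3 48 h A or B, CGR8 0 h B, or CGR8 48 h A or B (0.0513 to 0.107). Without a filter none of the 3 passed at 48 h (edgeR adjusted p 0.0644 for Btg1, 0.103 for Btg2 and 0.196 for Tob1). With library totals alone the Btg2 call at 48 h was lost (0.105), and with RLE factors that of Tob1 (edgeR adjusted p 0.0529). The fitted difference of Btg1 was below 0 at each of the 4 times.

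The members were also set beside the genes of the machinery they act through. This list and those that follow were chosen, like the members, with earlier results of these data known. For this and the following gene lists, the shares of all genes called at 2, 5 and 48 h were 35%, 51% and 52.3% in NIH/3T3 and 19.9%, 52.1% and 27.8% in CGR8. Of 15 genes of CCR4-NOT and other deadenylases, all tested, 0 were called at 1 h in either line by edgeR. An unadjusted p under 0.05 was reached by 2 of them in NIH/3T3 and by 0 in CGR8, and DESeq2 called 1 and 0. At 2 h in NIH/3T3, 2 rose and 2 fell, among them Noct, a circadian relative of the CCR4 deadenylases (0.93 ± 0.10), and the CCR4-NOT subunit Cnot3 (-0.44 ± 0.11). At 5 h, 1 rose and 5 fell in NIH/3T3 and 2 rose and 7 fell in CGR8, with list medians of -0.12 and -0.34 beside -0.01 and -0.01 over all genes. The named genes at 5 h were Cnot3 (-0.82 ± 0.11) and the poly(A)-specific ribonuclease Parn (0.29 ± 0.08) in NIH/3T3, and Pan3 of the PAN2-PAN3 deadenylase (-0.72 ± 0.16) and Parn (0.49 ± 0.10) in CGR8. At 48 h, 2 rose and 4 fell in NIH/3T3, led by Cnot6l (0.65 ± 0.12) and Cnot11 (-0.53 ± 0.08), and 2 rose and 2 fell in CGR8, led by Pan2 (0.42 ± 0.12) and Cnot9 (-0.38 ± 0.09). In CGR8 at 2 h, 1 rose (Parn, 0.29 ± 0.10) and 2 fell, led by Cnot4 (-0.63 ± 0.12).

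Among 21 other RNA-binding regulators of decay, 17 were tested in NIH/3T3 and 20 in CGR8, and 0 were called at 1 h by edgeR (3 and 1 at an unadjusted p under 0.05, and 0 by DESeq2). At 2 h, 2 rose and 6 fell in NIH/3T3 and 1 rose and 9 fell in CGR8, and at 5 h, 3 rose and 5 fell in NIH/3T3 and 3 rose and 11 fell in CGR8. The list medians in CGR8 were -0.32 at 2 h and -0.49 at 5 h, and in NIH/3T3 -0.09 and -0.04. Pabpc1, the main cytoplasmic poly(A)-binding protein, fell in NIH/3T3 at 2 h (-0.56 ± 0.10) and 5 h (-0.93 ± 0.10). Rc3h1, which encodes the stem-loop binding decay factor Roquin-1, fell in CGR8 at 2 h (-1.04 ± 0.20). Tia1, another AU-rich element binding protein, rose at 5 h in NIH/3T3 (0.74 ± 0.16) and CGR8 (0.55 ± 0.14). At 48 h, 6 rose and 6 fell in NIH/3T3, led by Rc3h2 (0.85 ± 0.18) and Paip2 (-0.53 ± 0.11), and 3 rose and 1 fell in CGR8, with Hnrnpd, which encodes the AU-rich binding protein AUF1, the largest rise of 10 CPM or more (0.39 ± 0.11).

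Of 16 mRNAs with AU-rich elements that are known as targets of the ZFP36 family, 12 had enough counts to be tested in NIH/3T3 and 9 in CGR8. Tnf, Csf2, Il10 and Cxcl2 were tested in neither line. In NIH/3T3, 6 of the 12 rose and 0 fell at 1 h, and 12 rose and 0 fell at 2 h, with list medians of 0.90 and 1.54 (0.653% and 16.1% of all genes were called higher). Il6, at a mean of 0.135 CPM at 0 h and 1.05 CPM at 2 h, had enough counts for the test only through its later groups. Dusp1, a phosphatase of MAP kinases, went from a mean of 31.3 CPM at 0 h to 120.3 CPM at 2 h there (1.98 ± 0.11, adjusted p 4.1e-09 by edgeR). At 5 h, 5 of the 12 were higher than at 0 h and 4 lower, led by the kinases Plk2 (0.93 ± 0.10) and Plk3 (-1.26 ± 0.16). From 2 h to 5 h in NIH/3T3, 0 of the 12 rose and 9 fell, with a list median of -1.02 (12.5% of all genes were called lower). At 48 h, 3 were higher and 6 lower, led by the chemokine Ccl2 (1.27 ± 0.15) and by Ptgs2, which encodes cyclooxygenase 2 (-1.46 ± 0.21).

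In CGR8, 1 of the 9 tested AU-rich mRNAs rose and 0 fell at 1 h, and 1 rose and 4 fell at 2 h, with a list median of -0.61 at 2 h. Fos, named after its values were seen, was the 1 that rose, at 2.35 ± 0.25 at 1 h and 0.98 ± 0.26 at 2 h, from a mean of 1.15 CPM at 0 h. Plk3 fell at 2 h (-0.76 ± 0.12) and Dusp1 at 5 h (-1.05 ± 0.16), and 0 rose and 4 fell at 5 h. At 48 h, 2 rose and 4 fell, led by Plk2 (1.14 ± 0.11) and Myc (-1.31 ± 0.14). The lines were compared over the 9 mRNAs with enough counts in each line, which leaves out Il6, Cxcl1 and Ccl2. At 2 h, 8 of the 9 responded differently in the lines, each lower in CGR8 (1.16% of all genes were called lower), with a median difference of -1.78 beside 0.07 over all genes. At 0 h, 8 of the 9 were lower in CGR8 than in NIH/3T3 and 1 was higher, beside 36.3% and 42.8% of all genes.

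The genes whose patterns were most like those of the members were sought by Pearson's r over the 30 libraries, on log2 CPM centred within each line, among 7015 genes of at least 10 CPM on average in both lines. Zfp36 was below that level in CGR8 and was not included. Khsrp had the closest partners, Prrc2a (r 0.977) and Rnf44 (0.971). Tob2 was most like Slc38a2 (0.917) and Mex3d (0.900), Zfp36l2 most like Spata2 (0.906) and Spry4 (0.898), and Zfp36l1 most like Zfand5 (0.899) and Cttnbp2nl (0.898). For Tob1 they were Tmem47 (0.892) and Yy1 (0.890), for Elavl1 Calm3 (0.863) and Ppme1 (0.862), for Btg2 Spty2d1 (0.856) and Fbxo28 (0.836), and for Btg1 Klf9 (0.842) and Rhob (0.809). These values describe libraries that share time points and carry no test.

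Among the 8 members in that search, pairs were also correlated within each line. Over the 15 libraries of NIH/3T3, Btg2 and Btg1 correlated at r 0.957 and Btg2 and Tob1 at 0.137. Over the 15 libraries of CGR8, Btg2 and Btg1 correlated at 0.158 and Btg2 and Tob1 at 0.912. Zfp36l1 and Zfp36l2 correlated at 0.927 in NIH/3T3 and 0.697 in CGR8, and Btg1 and Khsrp at -0.12 in NIH/3T3 and 0.938 in CGR8. These are only some of the pairs, and no rule set beforehand chose them. Other pairs had like values in the lines, such as Zfp36l1 and Btg1 (0.836 in NIH/3T3 and 0.813 in CGR8) and Tob1 and Khsrp (0.439 and 0.466). Each r is over libraries that share their time points, and the differences between the lines in r were not tested.

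In GENCODE M21, 6 of the 9 members overlap an annotated gene on the other strand: Zfp36 (Gm44710), Zfp36l1 (Gm26669), Zfp36l2 (AC132455.1), Tob2 (Gm49476), Elavl1 (Ccl25) and Khsrp (Gm17949). Btg1, Btg2 and Tob1 overlap none. The library kit keeps strand, but whether the counting used it is not given in the sources used here, so that counts of those 6 could include reads of the overlapping gene if strand was ignored.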

How the data were processed

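RNA was purified with the RNeasy mini kit and sequenced as stranded mRNA ligation libraries, per the labels' protocols. The authors deposited raw counts per gene for all 30 libraries in 1 table, and 0 columns were left out. STAR, DESeq2 and build GRCm39 are named in the submitters' processing notes. The counting tool, its use of strand and the annotation release are not given in the sources used here. Symbols came from a reference table, which matched 51880 of 57186 identifiers (90.7%) with versions removed.

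The members and gene lists were chosen with earlier results of these data known. Counts were fitted with edgeR 4.0.16 in R 4.3.3 (quasi-likelihood F test, TMM factors, filterByExpr with min.count 10 and min.total.count 15). Each line was fitted alone with 1 coefficient per time, and differences between the lines came from 1 model of all 30 libraries. Benjamini-Hochberg adjustment ran over all genes tested, with calls at an adjusted p under 0.05. CPM used library totals times TMM factors, and log2 CPM a prior count of 2. The approximate 95% interval is a normal interval from the SE of the fit. From each list the text names the called gene with the largest rise and the largest fall at 2, 5 and 48 h (mean of 10 CPM or more where higher), and for each member the 2 genes of the highest r. A gene that this rule names is not reported here. Depth limits precision most for Zfp36 in CGR8. Alternatives were DESeq2 1.42.0, scaling by RLE factors or by library totals alone, no expression filter, a filter on a mean of 5 CPM, a fit with only the groups compared, a block for the replicate letter, and leaving out 1 library at a time. The test was run on simulated counts of each line, with known changes at 5 h in a small part of the genes. That does not cover comparisons in which many genes change, nor the model of both lines. Reference genes and sequences were on build GRCm38, so no gene coordinates in GRCm39 are given.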

Additional observations from a re-analysis of the deposited data

Results flagged for a closer look

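The responses of the lines differed in the test of the difference itself (CGR8 minus NIH/3T3, log2, edgeR with all 30 libraries) in 15 instances. At 1 h these were Btg1 (-0.67) and Btg2 (-1.37). At 2 h they were Zfp36 (-2.06), Zfp36l1 (-1.24), Zfp36l2 (-1.40), Btg1 (-1.66), Btg2 (-2.98), Tob1 (-0.69) and Tob2 (-0.945). At 5 h they were Zfp36 (0.86), Btg1 (-1.06) and Btg2 (0.76), and at 48 h Btg1 (-0.52), Btg2 (0.46) and Tob1 (-0.45). Over all 17549 genes tested, 0.16%, 2.02%, 13.3% and 21.9% differed at 1, 2, 5 and 48 h.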

How the results depend on the processing

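No member that passed the test changed direction in any alternative, and 65 values of single genes that passed in neither setting had the other sign. Of the 88 calls among 153 combinations of member and comparison, 71 were kept in every fit that left out 1 library and 17 were lost in at least 1. DESeq2 called 5 members in NIH/3T3 at 1 h (3 by edgeR) and 4 in the difference between the lines at 1 h (2 by edgeR). In CGR8 at 1 h, 2 members were called without a filter, with DESeq2 and in a fit of the compared groups alone (1 otherwise). That last fit called 4 in CGR8 at 2 h (7 otherwise), 1 from 2 to 5 h in CGR8 (6) and 1 in the line difference at 1 h (2), and fewer samples enter it. Without a filter 0 members differed between the lines at 48 h (3 otherwise). 
Over fits that left out 1 library, the members called ranged from 0 to 1 in CGR8 at 1 h, 4 to 7 in CGR8 at 2 h, 2 to 4 in the line difference at 1 h and 1 to 2 in that at 48 h. In NIH/3T3 at 1, 2, 5 and 48 h they ranged from 2 to 4, 5 to 7, 5 to 6 and 3 to 3, and in CGR8 at 5 and 48 h from 5 to 7 and 2 to 3.

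Same-lettered replicates were not paired by the labels, and their deviations from the group means correlated at a median r of 0.0415 in NIH/3T3 (9 of 30 pairs over 0.1) and 0.0419 in CGR8 (12 of 30). With the replicate letter as a block, members called were 5 from 2 to 5 h in NIH/3T3 (7 without it) and 2 in the line difference at 48 h (3 without it), and the other counts were equal to those without it.

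Genes called of all tested moved by over 1.5 times in these cases. NIH/3T3 at 1 h gave 102, but 272 without a filter, 265 with DESeq2, 27 with the compared groups alone, and 52, 193, 53 and 475 without 0 h A, 0 h B, 0 h C and 1 h C. CGR8 at 1 h gave 43, but 202, 132 and 65 in the same 3 settings and 15 to 26 with any 1 library left out. NIH/3T3 at 2 h gave 4878, but 3078 without 0 h A and 3050 without 2 h C, and its step from 2 to 5 h 3220, but 2064 without 5 h B. CGR8 at 2 h gave 3174, but 965 with the compared groups alone and 1424, 1690 and 1062 without 0 h A, 0 h C and 2 h C. Its step from 2 to 5 h gave 3051, but 602 with the compared groups alone and 1738 without 2 h B. The lines at 0 h gave 13883, but 8601 at a mean of at least 5 CPM, which tests fewer genes. That filter keeps Zfp36 in this comparison and leaves it out of the fits of CGR8 alone. The line difference gave 28 at 1 h, but 44 without a filter and 15 with the compared groups alone, and 355 at 2 h, but 182 with the latter. Other causes were not tested. Scaling by library totals alone moved the median log2 fold change of all genes by -0.10 in CGR8 at 5 h and by -0.19 in the line difference at 5 h. It moved the share of calls that were higher from 53.5% to 68.4% in CGR8 at 1 h, from 41.3% to 25.2% from 2 to 5 h in CGR8 and from 61.6% to 31.5% in the line difference at 5 h. Depth limits Zfp36 in CGR8 most, where the count per library was lowest.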

Other observations

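Of 16 decapping and 5′ to 3′ decay genes, 15 were tested in NIH/3T3 and 16 in CGR8, and 0 were called at 1 h by edgeR (2 and 0 at an unadjusted p under 0.05, and 0 by DESeq2). At 5 h, 5 rose and 5 fell in NIH/3T3, and 6 rose and 5 fell in CGR8. Over all genes 51% and 52.1% were called. Among those of 10 CPM or more, the largest rise at 5 h was that of Lsm7, a subunit of the Lsm ring (0.79 ± 0.16 in NIH/3T3 and 1.29 ± 0.19 in CGR8), while Lsm2 of the same ring fell in NIH/3T3 (-0.54 ± 0.10) and was at -0.14 ± 0.14 in CGR8, which did not pass. Patl1, a decapping cofactor that binds that ring, fell in both lines (-0.88 ± 0.13 and -1.02 ± 0.15). At 48 h, 3 rose and 7 fell in NIH/3T3, led by the exonuclease Xrn1 (0.96 ± 0.15) and by Lsm3 (-1.04 ± 0.14), and 1 rose and 1 fell in CGR8, Edc4 (0.40 ± 0.12) and Lsm2 (-0.44 ± 0.14). At 2 h the counts were 4 and 4 in NIH/3T3 and 4 and 2 in CGR8.

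Of 15 genes of the RNA exosome and the Ski complex, which degrade RNA from the 3′ end, 14 were tested in each line. At 5 h, 7 rose and 1 fell in NIH/3T3 (list median 0.22) and 8 rose and 2 fell in CGR8 (0.36), beside a median of -0.01 over all genes in each line and the shares called that are given above. At 48 h, 2 rose and 10 fell in NIH/3T3 (-0.44) and 4 rose and 0 fell in CGR8 (0.16). The catalytic subunit Dis3 fell in NIH/3T3 at 48 h (-1.19 ± 0.07), and Ttc37, a scaffold of the Ski complex, rose at 48 h in NIH/3T3 (0.63 ± 0.13) and CGR8 (0.69 ± 0.19). In the test of the difference between the lines at 48 h, 9 of the 14 were higher in CGR8 and 0 lower, beside 21.9% of all genes called.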
